A study of Mus musculus with 14 samples.

Results

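The nuclear genes of the mitochondrial respiratory chain were read from ChIP-seq of H3K27ac, H3K27me3 and UTX in mouse bone marrow progenitors. Members were the protein-coding genes of the RefSeq table for build mm10 whose symbol begins with Nduf, Uqcr or Atp5, or with Cox followed by a digit from 4 to 8, together with Sdha, Sdhb, Sdhc and Sdhd. This gave 96 of 21887 protein-coding genes. By name, 49 belong to complex I, 4 to complex II, 8 to complex III, 18 to complex IV and 17 to complex V. No measured value was used to choose them. Ndufa4 and Ndufa4l2 are counted with complex I by name, although the Ndufa4 protein is now placed with complex IV.

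All libraries came from C57BL/6 bone marrow after removal of cells that carry mature lineage markers. The cells were wild type for UTX (WT) or lacked it (KO), UTX being the histone H3K27 demethylase encoded by Kdm6a. H3K27ac and H3K27me3 had 2 WT and 2 KO libraries each, UTX had 2 WT libraries, and 1 WT library made with IgG gave the background. The title of that IgG library names it as the control of a BCOR precipitation, not of the UTX one. The labels name neither the Cre line nor the sex and age of the mice, and do not say whether numbered libraries came from separate animals, so p-values measure only the spread between these libraries, which may be technical. The deposited values are reads in islands, stretches of enrichment that the authors called in each library.

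The respiratory chain moves electrons from NADH (complex I) and succinate (complex II) through complex III to oxygen at complex IV, and complex V uses the resulting proton gradient to make ATP. Most of its subunits are encoded in the nucleus, and their promoters are known for sites of NRF1, of the ETS family factor GABP and of YY1. Quiescent blood stem cells rely strongly on glycolysis, and respiration rises as progenitors divide and differentiate. H3K27ac marks active promoters and enhancers, and H3K27me3 marks genes silenced by Polycomb. UTX removes H3K27me3 and also works in complexes with enzymes that mark enhancers.

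H3K27ac libraries held 9330823 and 15256696 island reads in WT (replicates 1 and 2) and 14763744 and 11121847 in KO. H3K27me3 libraries held 2347442 to 2743508, the UTX libraries 816567 and 1834418, and the IgG library 154029. Kdm6a itself held H3K27ac in all 4 libraries (170.2 and 94.6 rpm in WT and 159.6 and 157.0 in KO, where rpm is the reads of islands that meet 2 kb either side of a gene end, scaled to 1000000 island reads of the library), which does not check the genotype, since island lists do not show a deleted exon. Of the progenitor marker genes, 9 of 10 had H3K27ac at their gene ends in all 4 libraries, Kit and Cd34 among them, while Ly6g, Cd3e, Cd4 and Cd8a had none in any library. Other T cell, granulocyte and monocyte genes were marked, and Cd3d, Cd5, Lck, Mpo and Elane had H3K27ac at their gene ends in all 4 libraries. Erythroid and B cell genes were marked as well, in amounts that differed between the genotypes (given beside the comparison of the genotypes).

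Promoters of 5 members are printed first. These members passed the test between the genotypes given further on. They lie alone in their H3K27ac region, meaning that no end of another protein-coding gene lay within 2 kb of it. Bodies of longer genes and noncoding genes were not checked, so the signal may still belong to another gene. The printed sequences are the 250 bases before the start site on the strand of the gene, 5′ to 3′, from RefSeq (assembly GRCm38.p6). Capitals mark the exact palindrome of the NRF1 motif in Atp5g2, the SP1 motif GGGCGG (here on the opposite strand) in Ndufab1 and the E-box CACGTG in Ndufv1. The sequences of Atp5o and Ndufb4b carry no capitals. The looser NRF1 motif described next is not marked. It lies in the promoter windows of Atp5g2, Ndufab1 and Atp5o.
Atp5g2 (chr15:102671048-102671297, minus strand): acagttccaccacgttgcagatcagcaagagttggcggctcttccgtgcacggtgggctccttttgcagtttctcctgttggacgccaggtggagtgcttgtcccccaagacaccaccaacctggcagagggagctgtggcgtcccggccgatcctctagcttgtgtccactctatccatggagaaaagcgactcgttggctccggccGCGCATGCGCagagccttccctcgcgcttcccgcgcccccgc
Ndufab1 (chr7:122101849-122102098, minus strand): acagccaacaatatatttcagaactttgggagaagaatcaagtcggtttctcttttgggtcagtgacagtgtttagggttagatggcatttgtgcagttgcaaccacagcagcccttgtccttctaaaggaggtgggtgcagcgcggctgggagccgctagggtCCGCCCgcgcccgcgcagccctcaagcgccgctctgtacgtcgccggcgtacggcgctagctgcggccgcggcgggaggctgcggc
Ndufv1 (chr19:4012756-4013005, minus strand): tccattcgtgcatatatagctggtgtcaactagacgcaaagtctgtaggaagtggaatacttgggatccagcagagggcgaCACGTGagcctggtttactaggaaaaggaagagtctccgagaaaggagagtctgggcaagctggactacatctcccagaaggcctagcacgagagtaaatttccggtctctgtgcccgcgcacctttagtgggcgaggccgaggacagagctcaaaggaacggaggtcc
Atp5o (chr16:91931631-91931880, minus strand): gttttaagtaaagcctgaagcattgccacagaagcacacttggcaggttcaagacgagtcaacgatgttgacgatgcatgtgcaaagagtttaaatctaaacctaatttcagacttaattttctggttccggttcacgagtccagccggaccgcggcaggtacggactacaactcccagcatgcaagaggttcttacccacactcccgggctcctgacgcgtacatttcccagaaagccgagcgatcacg
Ndufb4b (chr19:25032858-25033107, plus strand): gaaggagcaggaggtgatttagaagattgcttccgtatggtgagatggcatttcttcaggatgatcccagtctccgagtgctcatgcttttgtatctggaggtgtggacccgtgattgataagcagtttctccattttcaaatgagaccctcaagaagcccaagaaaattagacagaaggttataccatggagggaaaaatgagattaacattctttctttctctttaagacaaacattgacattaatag

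The motifs are short, and their shares are a description of the reference sequence. RefSeq promoters (250 bases before to 50 after the start site) were at hand for 78 of the 96 members and for 17492 genes in all. The exact NRF1 motif, searched on both strands like the others, lay in 8.97% of member promoters, against 1.47% of all promoters and 2.47% of promoters of genes with H3K27ac in all 4 libraries. Its looser form, with any bases at the 2 central positions and so holding the exact one, lay in 26.9%, against 9.61% and 15.4%. The YY1 motif AAGATGGC lay in 14.1%, against 3.57% and 5.50%, and the ETS motif CCGGAAG in 24.4%, against 12.9% and 21.1%. NRF1 and YY1 letters were thus more frequent in member promoters than in either background, whereas the ETS letters stood close to those of H3K27ac-marked genes. The SP1 motif lay in 44.9% of member promoters, below the 67.5% of H3K27ac-marked genes, and CCAAT in 43.6% against 42.9%. The shares were 5.13% against 3.68% for the cyclic AMP response element TGACGTCA and 7.69% against 11.8% for the E-box.

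Many members start back to back with another gene. A gene on the opposite strand began within 1000 bp upstream for 21 of the 78 members (26.9%), against 7.52% of all genes and 13.5% of genes with H3K27ac in all 4 libraries. Ndufa7 and the ribosomal protein gene Rps28 start 10 bp apart, Ndufs3 and Kbtbd4 19 bp apart, and Sdhd and Timm8b, which encodes a mitochondrial import chaperone, 52 bp apart. ChIP islands are wider than such gaps, so the 2 promoters of a pair cannot be told apart here.

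The respiratory chain genes were broadly marked by H3K27ac in both genotypes. An island met the window of 2 kb either side of a gene end in all 4 libraries at 87 of 96 members (90.6%), against 51.7% of all protein-coding genes. No member lost its island (present in both WT libraries and neither KO library) and none gained one, against 1.32% and 1.12% of all genes. The 5 members without an island in any library were Cox7b2, Cox8b, Cox8c, Ndufa4l2 and Ndufb4c. The Cox genes among them encode forms of complex IV subunits used in testis or muscle, and Ndufa4l2 is a hypoxia-induced relative of Ndufa4.

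At 4 further members, all of complex IV, islands were called in some libraries only. Cox4i2, the hypoxia-responsive form of subunit 4, had 11.4 rpm in WT replicate 1 and no island elsewhere. Cox6a2, the heart and muscle form of subunit 6A, had 11.0 rpm in KO replicate 1 alone. Cox5a had an island at its gene ends only in WT replicate 2 (88.9 rpm), and Cox7a2 only in WT replicate 2 and KO replicate 1 (58.9 and 63.9 rpm). For Cox5a and Cox7a2 the gap lies in the window, because their start sites in the promoter table lie 3904 and 4612 bp inside the annotated gene. H3K27ac islands lay within 2 kb of those start sites in 4 of 4 libraries. Of the 78 members with a start site in that table, 76 had an H3K27ac island within 2 kb of it in all 4 libraries, all but Cox7b2 and Cox8b.

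The amount of H3K27ac differed widely between members and also between the complexes. In rpm at gene ends, the median over all members was 49.8 ± 2.02 in WT and 46.5 ± 1.93 in KO (mean ± SD of the library medians, n = 2 each), beside 53.9 ± 0.985 and 55.2 ± 1.31 for all genes marked in 4 libraries. Complex V genes stood at 67.4 ± 1.64 in WT and 56.8 ± 3.49 in KO, and complex I genes at 45.6 ± 4.74 and 40.1 ± 1.42. Complex III had 41.6 ± 0.301 and 42.8 ± 0.519, complex IV 35.7 ± 1.23 and 35.6 ± 2.60, and the 4 complex II genes 71.4 ± 3.70 and 63.7 ± 16.1. The KO medians of complexes I and V lay below both WT library medians. Those of complex III lay slightly above both (42.47 and 43.2 rpm in KO against 41.85 and 41.42 in WT), while those of complexes II and IV overlapped WT. Summed over all members, the reads at gene ends were 6068 and 5945 rpm in WT and 5813 and 6091 in KO, so the genotypes overlapped in the total.

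The most heavily marked members lie in wide islands. Atp5d, the delta subunit of the ATP synthase stalk, had 323 and 285 rpm in WT and 512 and 522 in KO, in a region of 40.4 kb, the widest of all members. Atp5b, the catalytic beta subunit, had 245 and 241 rpm in WT and 257 and 275 in KO. Ndufa6 had 263 and 258 rpm in WT and 221 and 239 in KO, and Ndufv2, a flavoprotein of the NADH-binding arm, 215 and 179 against 224 and 228. Ndufv2, Atp5b and Atp5d thus lay higher in both KO libraries at this measure, which counts every read of an island that touches the window, and none of them passed the test given next. Among complex III genes Uqcr11 was highest (176 and 174 rpm in WT, 185 and 193 in KO), followed by Uqcrh, the hinge protein (122 and 113 against 129 and 139). Uqcrc1, a core protein, was lowest (25.8 and 26.4 against 21.3 and 26.6).

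In complexes II, IV and V the spread between libraries was wide for some members. Sdhb, the iron-sulfur subunit of complex II, had 135 and 76.5 rpm in WT and 87.3 and 76.2 in KO. Sdhd, a membrane anchor, had 95.5 and 80.8 against 56.5 and 92.3, and Sdha, the flavoprotein, 47.3 and 39.1 against 32.4 and 74.1, so the genotypes overlapped at all 3 genes. Cox6b2 was the most marked complex IV gene in WT (173 and 183 rpm, against 39.9 and 42.3 in KO), and Cox4i1, the common form of subunit 4, had 73.1 and 67.2 against 74.2 and 74.0. Atp5k, the lowest of complex V, had 16.8 and 27.4 rpm against 18.4 and 20.5.

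Cells without UTX kept H3K27ac at the respiratory chain genes, with small differences in amount. It fell at 12 members in KO, rose at 4 and did not pass the test at 73. Over all 11722 tested genes 16.9% fell and 10.8% rose, against 13.5% and 4.49% of the members, so the share of members that fell was near the background. The falls were largest at Ndufab1, Cox6b2 and Ndufaf1 (log2 fold changes of -0.82, -0.73 and -0.71), and the rises at Ndufb4b and Cox7a1 (0.95 and 0.81). Overlapping islands of the 4 libraries were joined into regions. A region was tested if every library had an island in it, and each gene was read at the strongest tested region within 2 kb of its ends. Reads are given as CPM, edgeR's counts scaled to 1000000 reads in tested regions after TMM, a fold change is log2 of KO over WT with its standard error (SE), and a call is a Benjamini-Hochberg adjusted p under 0.05 in edgeR's quasi-likelihood test over all regions. The test covered 89 members in 89 regions, all those with a region in 4 libraries: besides the 5 members with no island, Cox4i2 and Cox6a2 were not tested. Of the 89 regions, 61 (68.5%) also lay within 2 kb of an end of another protein-coding gene, against 49.9% of all tested genes. There the signal cannot be assigned to one gene.

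The members that did not pass ranged from -0.58 to 0.28 on the log2 scale. The fitted values as a whole lay slightly below those of other genes: the median log2 fold change was -0.165 in the members and -0.049 over all tested genes, and 74 of the 89 members were below 0, against 55.8% of genes. Both KO libraries lay below both WT libraries at 54 members (60.7%), against 40.4% of genes, and above them at 9 (10.1%), against 29.7%. Scaling to total island reads moved the median of all genes by more than 0.1, to 0.065, and that of the members to -0.053, which left the difference between them at -0.118 (-0.116 with TMM). With that scaling 57 members were below 0, 7 fell and 5 rose. The shares of all genes at that scaling are not given here, so these counts stand without a background.

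**Figure D1:**
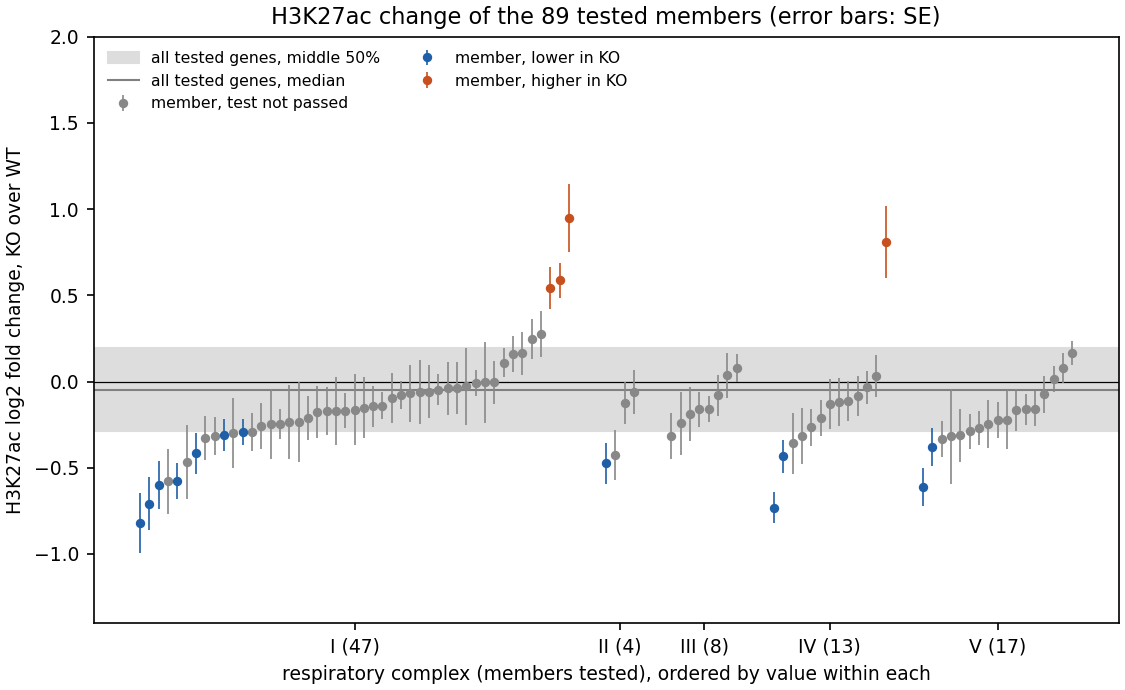
Log2 fold change of H3K27ac (KO over WT, edgeR, TMM scaling; error bars are the SE) for the 89 tested members, ordered within each complex, with the 12 that fell in blue and the 4 that rose in orange; the line and band are the median and middle 50% of all tested genes. Most members lie below 0 in each complex, with Ndufab1 lowest at -0.82, while with total island reads 57 in place of 74 lie below 0 and per covered length the medians of complexes III and V turn to 0.02.

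The lower reads went with shorter islands. An island's length in each library follows from where the authors' caller found enrichment, and the covered length of a member's region was shorter in both KO libraries than in both WT libraries at 24 of 89 members (26.97%) and longer at 7 (7.87%), against 20.4% and 22.1% of genes. Of the 12 members that fell, 6 had shorter coverage in KO and none longer, and of the 4 that rose, 3 had longer coverage. With reads taken per covered length no member passed in edgeR (6 were lower and 1 higher at an unadjusted p under 0.05), against 1.57% of genes lower and 0.623% higher, and the median of the members equalled that of all genes (-0.066 for both). Per covered length the medians of complexes III and V turned slightly positive (0.02 each), and Ndufab1, Ndufv1, Ndufa4 and Cox7a1 changed sign. The difference in reads can therefore not be told apart from a difference in the width of the called islands.

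**Figure D2:**
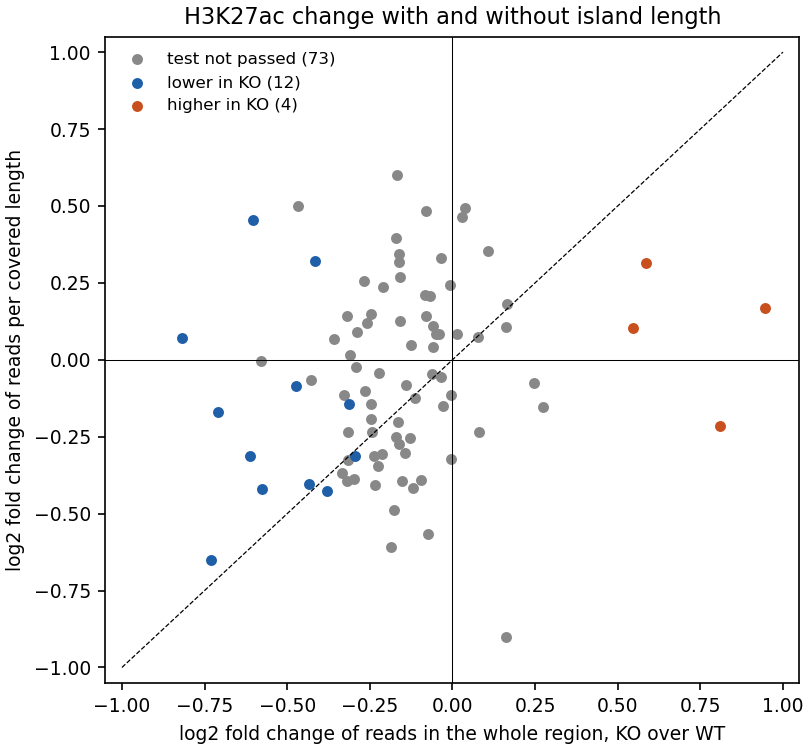
Log2 fold change of H3K27ac (KO over WT) per covered length (vertical axis) against that of the reads in the whole region (horizontal axis) for the 89 tested members, coloured by the call in the whole region, with a dashed line where both are equal. The members that fell (blue, 12) and rose (orange, 4) lie mostly nearer to 0 per covered length, and Ndufab1, Ndufv1, Ndufa4 and Cox7a1 lie on the other side of 0.

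The calls also rested on few libraries. Cox6b2 and Ndufb9 passed without each of the 4 libraries in turn, and both share their region with other genes. Without WT replicate 1 there were 6 members that fell and 2 that rose, without WT replicate 2 there were 2 and 1, without KO replicate 1 there were 5 and 1, and without KO replicate 2 there were 7 and 3. The shares of all genes with a library left out are not given here. Each call that was lost is named with its adjusted p in the paragraphs on the complexes.

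Complex I held 7 of the members that fell and 3 of those that rose, of 47 tested (median -0.16). Ndufab1, the mitochondrial acyl carrier protein, had 32.2 and 32.3 CPM in the WT libraries and 17.7 and 18.8 CPM in KO, in a region of its own (chr7:122098201-122103800) that covers its start site. This was the largest fall among the members (log2 fold change -0.82, SE 0.173, edgeR Benjamini-Hochberg adjusted p = 0.0144), and both KO libraries lay below WT without overlap. Its islands covered 5.0 kb in each WT library and 2.6 and 2.8 kb in KO, and per covered length the log2 fold change was 0.07. The call was lost without either WT library or KO replicate 1 (edgeR adjusted p 0.0611 to 0.0695). Its promoter is the one printed with an SP1 motif 86 bases before the start site, and it also holds the looser NRF1 motif.

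Ndufv1, the core subunit that binds NADH and FMN, had 59.4 and 58.5 CPM in WT and 42.7 and 34.9 CPM in KO, also in a region of its own (chr19:4009201-4021000). The groups did not overlap (edgeR adjusted p = 0.0207, log2 fold change -0.60, SE 0.140), and its islands covered 10.0 and 9.2 kb in WT and 7.0 and 3.2 kb in KO. Per covered length the sign turned (0.45), a window of 5 kb reached another region with 0.096, and the call was lost without either WT library or KO replicate 2 (edgeR adjusted p 0.0943 to 0.101). Ndufaf1, an assembly factor of complex I, had 46.2 and 45.7 CPM in WT and 30.5 and 25.7 CPM in KO (chr2:119660001-119664800, shared with H3f3c). Its fall (log2 fold change -0.71, SE 0.154, edgeR adjusted p = 0.0161) was lost without either WT library or KO replicate 2 (edgeR adjusted p 0.0739 to 0.0781). It was the only 1 of the 8 assembly factor genes to pass. Of the 7 core subunit genes, Ndufv1 was the only one that fell.

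Ndufb9, Ndufb1 and Ndufa6 encode accessory subunits, which surround the core of complex I, and Ndufa4 is listed with them by name. Ndufb9 had 123 and 144 CPM in WT and 89.4 and 90.1 in KO, with no overlap (log2 fold change -0.58, SE 0.104, edgeR adjusted p = 0.00807), in a region shared with Mtss1 and Tatdn1 (chr15:58923801-58939800). Ndufa4 had 56.2 and 59.3 CPM against 43.2 and 43.4, in a region shared with its divergent partner Phf14. Its fall (log2 fold change -0.42, edgeR adjusted p = 0.0387) was lost without each of the 4 libraries in turn (edgeR adjusted p 0.0830 to 0.146) and with total island reads (0.136), and per covered length the value was 0.32. The values of Ndufb1 and Ndufa6 were higher and their falls smaller. Ndufb1, which starts back to back with Cpsf2, had 218 and 208 CPM in WT and 159 and 184 in KO (log2 fold change -0.31, edgeR adjusted p = 0.0494). This call was lost without either WT library or KO replicate 1 (edgeR adjusted p 0.117 to 0.266) and with total island reads (0.198). Ndufa6, in a region of 23.8 kb with Pheta2 and Smdt1 among others, had 289 and 298 CPM in WT and 233 and 246 in KO (log2 fold change -0.29, edgeR adjusted p = 0.0277), and lost its call without each of the 4 libraries in turn (edgeR adjusted p 0.0651 to 0.152) and with total island reads (0.143).

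All 3 complex I members that rose had higher CPM in both KO libraries than in both WT libraries, which passing the test on the same counts selects for. Ndufv3 had 43.2 and 41.1 CPM against 64.7 and 58.1 (log2 fold change 0.55, edgeR adjusted p = 0.0181), in a region shared with Wdr4. That call was lost without either WT library or KO replicate 1 (edgeR adjusted p 0.0589 to 0.112). Ndufb4b, whose promoter is printed with no capitals, lies alone in its region (chr19:25031401-25047000) and had 25.6 and 18.8 CPM in WT and 44.4 and 40.8 in KO (log2 fold change 0.95, SE 0.196, edgeR adjusted p = 0.0133). It was the largest rise among the members, and it was lost without WT replicate 2 or KO replicate 1 (edgeR adjusted p 0.0569 and 0.0506, in that order). By name it is a copy of Ndufb4, and reads from copies of one gene can be placed at the wrong copy. Ndufb4 itself did not pass (log2 fold change -0.21, edgeR adjusted p = 0.273), and the other copy, Ndufb4c, had no island.

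**Figure D3:**
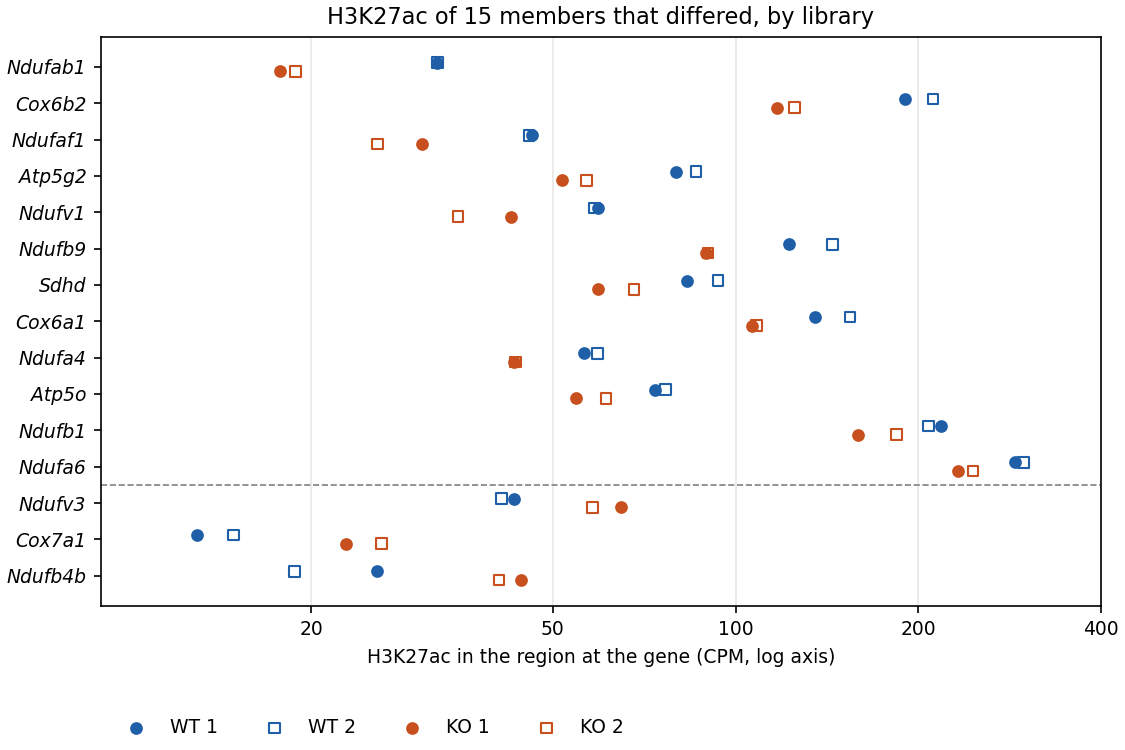
H3K27ac in CPM (log axis) in each of the 2 WT and 2 KO libraries for 15 of the 16 members that passed, those that fell above the dashed line and those that rose below it. At each of the 15 genes the WT and KO libraries do not overlap, which adds no support, since passing the test on the same counts selects for it. Without overlap, KO lay below WT at 40.4% and above WT at 29.7% of all tested genes. The fitted fold change is below 2-fold at each of the 15.

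In complex II, 1 of 4 members fell (median -0.28). Sdhd had 83.0 and 93.5 CPM in WT and 59.4 and 68.0 in KO (log2 fold change -0.47, SE 0.118, edgeR adjusted p = 0.0263), in the region it shares with Timm8b and Nkapd1. The WT and KO libraries did not overlap at this region, but the call was lost without WT replicate 2 or KO replicate 1 (edgeR adjusted p 0.125 and 0.143) and with total island reads (0.0639). Sdha, Sdhb and Sdhc did not pass, at -0.43, -0.12 and -0.06 on the log2 scale. None of the 8 complex III members passed in edgeR or DESeq2, none had an unadjusted p under 0.05, and they ranged from -0.315 at Uqcr10 to 0.08 at Uqcrh.

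In complex IV, 2 of 13 tested members fell and 1 rose (median -0.13). Cox6b2, the form of subunit 6B known from testis, had 190 and 212 CPM in WT and 117 and 125 in KO, in a region of 15.4 kb (chr7:4738401-4753800) shared with Fam71e2 and the histone methyltransferase gene Kmt5c. The libraries did not overlap (edgeR adjusted p = 0.00175, log2 fold change -0.73, SE 0.089), and per covered length the value was -0.65 (edgeR adjusted p = 0.0589). Cox6a1 was read at a strong region beyond its end (chr5:115325601-115344000) that holds Gatc, Srsf9 and Triap1, with 135 and 154 CPM in WT and 106 and 108 in KO (log2 fold change -0.43, edgeR adjusted p = 0.0167). At the region of its own 5′ end the log2 fold change was -0.235 and did not pass (edgeR adjusted p = 0.293), so the call belongs to the neighbours' region. It was also lost without WT replicate 2, KO replicate 1 or KO replicate 2 (edgeR adjusted p 0.0563 to 0.0770). Cox7a1, the heart and muscle form of subunit 7A, had 12.9 and 14.9 CPM in WT and 22.8 and 26.1 in KO, the lowest level of all members that passed. Its rise (log2 fold change 0.81, SE 0.210, edgeR adjusted p = 0.0305) was lost without each of the 4 libraries in turn (edgeR adjusted p 0.0609 to 0.139), and its region is shared with Capns1. Cox4i1 did not pass (log2 fold change -0.03).

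In complex V, 2 of 17 members fell and none rose in edgeR (median -0.22; 5 lower and none higher at an unadjusted p under 0.05). Atp5g2 encodes a copy of the c subunit that forms the rotating ring in the membrane. It had 79.8 and 86.1 CPM in WT and 51.8 and 56.8 in KO, in a region of its own (chr15:102663401-102673000) that covers its start site. The groups did not overlap (edgeR adjusted p = 0.00772, log2 fold change -0.61, SE 0.110), and the call held without WT replicate 1, KO replicate 1 or KO replicate 2 and was lost without WT replicate 2 (edgeR adjusted p = 0.0512). The exact NRF1 motif in its printed promoter lies 42 bases before the start site. The other c subunit genes, Atp5g1 and Atp5g3, did not pass (-0.31 and -0.07). Atp5o, the subunit that joins the head to the stalk, had 73.6 and 76.7 CPM in WT and 54.5 and 61.2 in KO (log2 fold change -0.38, SE 0.111, edgeR adjusted p = 0.0444). Its call was lost without each of the 4 libraries in turn (edgeR adjusted p 0.0783 to 0.244) and with total island reads (0.162). None of the 5 genes of the catalytic head passed: Atp5a1, Atp5b, Atp5c1, Atp5d and Atp5e ranged from -0.29 to 0.16.

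Marker genes of blood lineages moved in these libraries as well. For all tested genes the shares were 16.9% lower and 10.8% higher in KO. Of 9 tested erythroid genes all 9 fell, with summed levels at gene ends of 1504 and 1700 rpm in WT and 318.5 and 395.7 in KO over 19 genes (Ank1 at 0 throughout). Of 9 tested B cell genes 7 rose (426 and 382 rpm in WT, 857 and 1159 in KO over 12 genes, none at 0), and of 11 tested granulocyte and monocyte genes 4 rose (919.6 and 1043 against 1469 and 1230 rpm over 14 genes, Ly6g at 0). Of 9 tested megakaryocyte genes 4 fell and 1 rose (752 and 785 against 563 and 537 rpm over 12 genes, Gp1bb at 0), of 9 progenitor genes 5 fell (1047 and 1022 against 1004 and 804 rpm over 10 genes, none at 0), and of 4 T cell genes 3 rose (72.8 and 57.2 against 226 and 112 rpm over 8 genes, with Cd3e, Cd4 and Cd8a at 0). Without WT replicate 1, WT replicate 2, KO replicate 1 and KO replicate 2 in turn, the erythroid falls stayed at 9 and the B cell rises numbered 6, 6, 7 and 6, while the progenitor falls numbered 2, 1, 6 and 2 and the T cell rises 0, 0, 0 and 3. The megakaryocyte falls numbered 3, 3, 6 and 3 and the granulocyte and monocyte rises 3, 4, 3 and 4. Per covered length 4 erythroid falls and 2 B cell rises were left, and no progenitor or T cell gene passed. The part of these lineage differences in the values of the respiratory chain genes was not tested. In bulk chromatin, fewer cells of a type and less H3K27ac per cell cannot be told apart.

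Other large sets of genes used in all cells give the scale of the members' shift. Over all tested genes 16.9% fell and 10.8% rose. Of the mitochondrial ribosomal protein genes 13 of 77 fell (16.9%, the background share) and none rose (median -0.24). Of the cytosolic ribosomal protein genes 37 of 84 fell and 3 rose (44.05% and 3.57%, median -0.30). Of the proteasome subunit genes 11 of 48 fell and 2 rose (22.9% and 4.17%, median -0.16). The respiratory chain (12 and 4 of 89, median -0.16) lay closest to the proteasome in its median. Leaving out the 4 libraries in the same order gave 5, 6, 7 and 6 falls of mitochondrial ribosomal, 17, 14, 22 and 13 of cytosolic ribosomal and 7, 6, 6 and 9 of proteasome genes. With total island reads the falls numbered 6, 20 and 9, and per covered length no gene of the 3 sets passed. Differences between these sets were not tested.

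**Figure D4:**
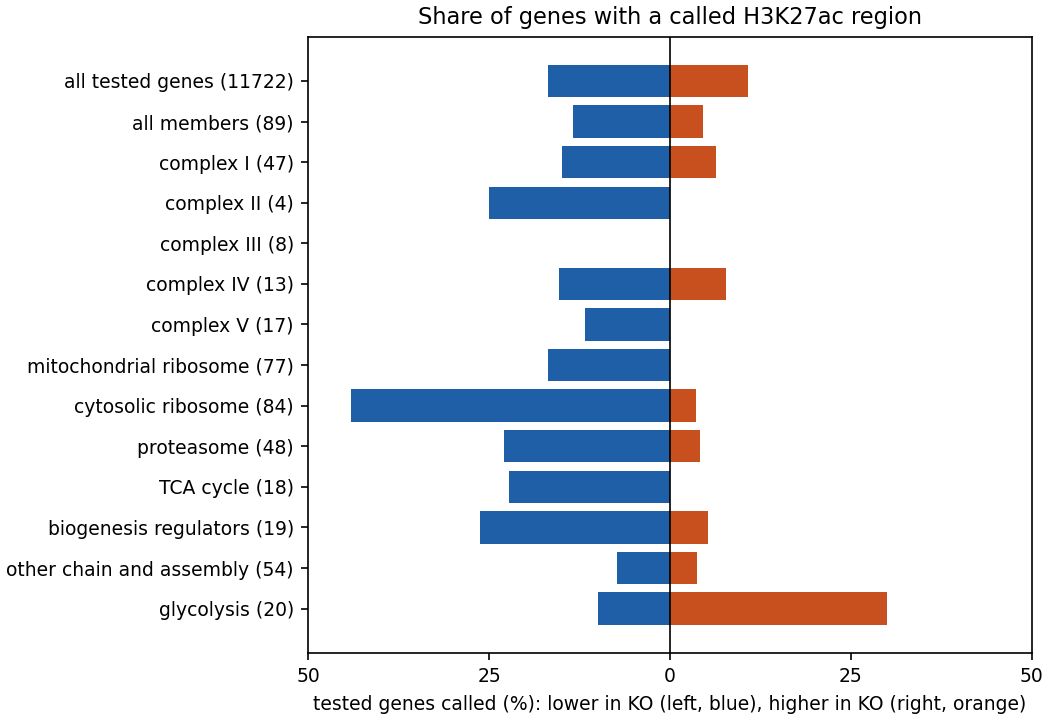
Share of tested genes (percent, number tested in brackets) whose H3K27ac fell (left) or rose (right) in KO at an edgeR adjusted p under 0.05, for all genes, the members, each complex, the comparison sets and the pathway lists. The members' shares, 13.5% lower and 4.49% higher, lie below those of all genes, 16.9% and 10.8%.

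The genes that work with the chain were read in the same fit. Of 54 other respiratory chain and assembly genes, 4 fell and 2 rose (7.41% and 3.70%, median -0.02), against 16.9% and 10.8% of all tested genes. Cox10, which acts in the synthesis of heme A for complex IV, rose with 51.2 and 36.5 CPM in WT and 77.8 and 76.3 in KO (log2 fold change 0.82, SE 0.166, edgeR adjusted p = 0.0120). That call held without each library in turn but not per covered length, where the sign turned (-0.75, edgeR adjusted p = 0.123). Tmem126b, a complex I assembly factor, rose by 0.71, and Uqcc1, Cox20, Coq5 and Coq6 fell with log2 fold changes of -0.51, -0.25, -0.67 and -0.56. Without WT replicate 1, WT replicate 2, KO replicate 1 and KO replicate 2 in turn, this list had 1, 0, 1 and 0 falls and 1, 2, 2 and 1 rises. Per covered length Tmem126b, Uqcc1 and Coq6 changed sign too (-0.14, 0.11 and 0.81), and neither these nor Cox20 and Coq5 passed. Atpif1, the inhibitor of the ATP synthase, fell with 195 and 200 CPM in WT and 102 and 113 in KO (log2 fold change -0.88, SE 0.088, edgeR adjusted p = 8.6e-04), in a region shared with Dnajc8, and it held without each library but not per covered length (-0.505, edgeR adjusted p = 0.142). It is known to be needed for heme synthesis in red cell precursors.

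Of 18 tricarboxylic acid cycle genes, which feed electrons to the chain, 4 fell (22.2%) and none rose (median -0.12). Over all tested genes 16.9% fell and 10.8% rose. Idh3a, a subunit of isocitrate dehydrogenase, had 61.5 and 64.7 CPM in WT and 28.3 and 32.6 in KO, in a region of its own (edgeR adjusted p = 0.00203, log2 fold change -1.06, SE 0.134), and Idh3b, its partner, fell with -0.75. Dlst and Cs fell with -0.45 and -0.36. Idh3a and Idh3b passed without each library, the list had 3, 2, 3 and 2 falls without the 4 libraries in the same order. Per covered length none passed, and Idh3a, Idh3b and Dlst changed sign (0.395, 0.03 and 0.35). Of 19 genes that regulate mitochondrial biogenesis, 5 fell and 1 rose (26.3% and 5.26%, median -0.22). Pprc1 and Ppargc1b, coactivators of the PGC-1 family, fell with -0.81 and -0.70, Tfe3 with -1.30, Myc with -0.60 and Twnk, the mitochondrial DNA helicase, with -0.565. Esrra, the estrogen-related receptor alpha, rose by 0.33. The falls of Pprc1, Tfe3 and Myc held without each library but not per covered length (-0.06, -0.17 and -0.60), where no gene of the list passed, and leaving out WT replicate 1, WT replicate 2, KO replicate 1 or KO replicate 2 gave 3, 3, 4 and 3 falls and no rise. Gabpa, which encodes the DNA-binding subunit of GABP, shares its region with the complex V member Atp5j and did not pass (-0.16).

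UTX itself was measured in WT only. Its islands in both libraries, with no IgG island, met the gene ends of 53 members (55.2%), against 34.5% of all genes. Among genes with H3K27ac in all 4 libraries the shares were 60.9% of members and 65.1% of genes, so the members were not richer in UTX than other H3K27ac-marked genes. A further 29 members had UTX in 1 library and 14 in none. An IgG island met none of the 96 members, against 0.621% of genes. UTX islands rarely filled the window: with an island required to cover at least 50% of it, 4 members were left.

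The strongest UTX signal at gene ends lay at Atp5b, with 170.2 and 294 rpm in libraries 1 and 2. Within 2 kb of its start site an island was called in 1 library only, so in the other library the signal lay at the far gene end. Atp5b was followed by Ndufs1, the largest complex I subunit (276 and 134 rpm), and Ndufv2 (193.5 and 199.5 rpm). Ndufaf3, an assembly factor (199.6 and 185 rpm), and Atp5h, a stalk subunit (143 and 196 rpm), came next. At Atp5b and Ndufs1 the libraries lay further apart than the means of the 2 genes (232 and 205 rpm), so the order is not fixed. H3K27ac did not pass the test at any of the 5, with log2 fold changes of 0.015, -0.33, 0.11, -0.01 and 0.08. Of the 14 members with no UTX island, 9 belong to complex IV and include the tissue forms Cox4i2, Cox6a2, Cox7a1, Cox7b2, Cox8b and Cox8c. For Cox5a and Cox7a2, also among the 9, the window at the gene ends misses the start site, and UTX islands lay within 2 kb of it in 2 libraries and 1 library.

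**Figure D5:**
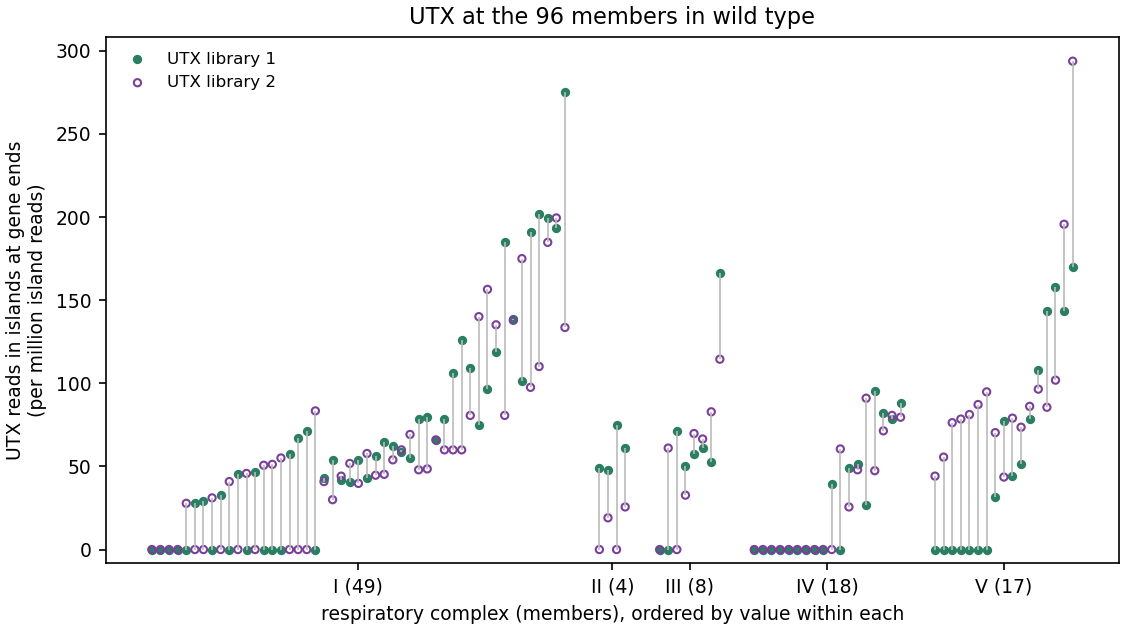
UTX reads in islands at gene ends (rpm) in both WT libraries for all 96 members, ordered within each complex, with a line joining the libraries of each gene. Values reach 294 at Atp5b, and members at 0 in 1 library only show how far the libraries differ.

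UTX occupancy in WT was set beside the H3K27ac change in KO. Of the 53 UTX-occupied members 7 fell and none rose (median -0.15; none higher at an unadjusted p under 0.05 in edgeR and 1 in DESeq2), and of the other 36 tested members 5 fell and 4 rose (median -0.19). Over all genes 18.8% of occupied genes fell and 8.98% rose, against 13.7% and 13.9% of the others. Of the members that rose, Ndufv3 had UTX in library 1 only (29.4 rpm), and Cox7a1 and Ndufb4b had none. With total island reads 1 occupied member, Atp5d, also rose, so the absence of rises there depends on the scaling. Leaving out WT replicate 1, WT replicate 2, KO replicate 1 or KO replicate 2 gave 4, 1, 3 and 5 falls among occupied members, and 2, 1, 2 and 2 falls and 2, 1, 1 and 3 rises among the others. Per covered length none of either passed. The difference between occupied and other members was not tested.

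H3K27me3 was rare at the members. It met the gene ends of 15 members in at least 1 of 4 libraries (15.6%), against 33.4% of genes, and of 5 members in all 4 (5.21%), against 19.5%. None of the 11 members with a tested region passed (edgeR adjusted p from 0.680 to 0.997) and none had an unadjusted p under 0.05, nor did any pass in DESeq2, against 0.0209% of 4789 genes lower and 0.0% higher. At these depths the test recovered few small changes: of regions changed 2-fold in simulated counts 24% were recovered, and of those changed 4-fold 95%.

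Ndufa4l2, Atp5d, Atp5g2 and Cox4i2 were among the 5 members marked in every library. Ndufa4l2, which had no H3K27ac, carried the most, with 171 and 249 rpm in WT and 228 and 224 in KO, and the groups overlapped. Atp5d had 26.2 and 44.8 rpm in WT and 62.2 and 75.8 in KO, higher in both KO libraries (not passed: log2 fold change 0.85, edgeR adjusted p = 0.680). Atp5g2 had 45.6 and 76.2 rpm against 74.6 and 86.2, in a region of 31.6 kb that begins just upstream of its start site (chr15:102671201-102702800), and it fell in H3K27ac. Cox4i2 had 25.5 and 17.9 rpm against 25.6 and 28.7. Both KO libraries of Cox4i2 lay above both WT libraries, by little, and the test was not passed (edgeR adjusted p = 0.945).

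At the other 10 members islands were called in some libraries only. Cox7b had 40.0 and 27.1 rpm in the KO libraries and no island in WT, and Ndufa11, an accessory complex I subunit, had 93.3 and 32.7 rpm in KO and none in WT. The larger Ndufa11 region, with an island in every library, had 134 and 127 CPM in WT and 113 and 77.7 in KO (edgeR adjusted p = 0.774), so the islands in KO reached closer to the gene without more reads in the region. Ndufa10 was marked in WT replicate 2 and both KO libraries, Cox6b1 in all but KO replicate 1, and Ndufs3 in replicate 1 of each genotype. Ndufa13 and Uqcrfs1 were marked in 1 WT library each, and Atp5mpl, Cox6a1 and Ndufa1 in KO replicate 2 only.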

How the data were processed

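ChIP-seq of H3K27ac, H3K27me3, UTX and IgG was used from 11 of 14 samples; 2 inputs and 1 IgG sample were not analysed here. Islands were called with SICER on build mm10, per the submitters' processing notes; version, aligner, thresholds and controls are not given in the sources used here. The deposited files give whole-number counts of reads per island, called per library, so reads outside islands were not used. Genes and promoters came from RefSeq (GRCm38.p6), where 17492 of 21887 genes had a start site and strand. The test on region counts was edgeR's (version 4.0.16, R 4.3.3; glmQLFit and glmQLFTest with TMM, two-sided, Benjamini-Hochberg), with DESeq2 1.42.0 as an alternative. The SE is the absolute log2 fold change over the root of F. In counts simulated for H3K27ac, 76% of 100 regions changed 2-fold and 100% of those changed 4-fold were recovered, with 10 of 18620 unchanged regions called. The simulations of both marks used 1 dispersion common to all regions. They leave out differences in spread between regions, so recovery and false calls in the real counts may be worse. Members, lists, named genes (called members, the highest and lowest of each complex, those without H3K27ac or with H3K27me3, the 5 strongest in UTX, and called list genes) and tests were chosen with earlier results of these data known. Replicates per group were 2, and leaving out 1 leaves a lone library assumed to vary like the other group. Values of some genes are not reported here.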

Additional observations from a re-analysis of the deposited data

How the results depend on the processing

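The counts that follow are totals under each setting, so they can hold members not called in the main run (12 falls and 4 rises). DESeq2 gave 10 and 4, requiring an island in only 2 libraries 11 and 4, and at least 50 reads in each library 11 and 4. Windows of 1 kb gave 11 and 4, windows of 5 kb 11 and 3, and the 5′ end alone, with 74 members tested, 11 and 3. With islands in 2 libraries 13 of the 16 main calls were kept, and Atp5a1 and Atp5pb were added. The 5′ end alone kept 13 and added Ndufs7. Scaling to total island reads gave 7 and 5 (11 main calls kept and Atp5d added), and reads per covered length 0 and 0. Leaving out 1 library at a time gave 2 to 7 falls and 1 to 3 rises. Per covered length the log2 fold change turned sign at Ndufab1 (0.071), Ndufv1 (0.454), Cox7a1 (-0.216) and Ndufa4 (0.322), and with windows of 5 kb at Ndufv1 (0.096), where another region is read. For the other changes the cause was not tested. With 50% of the window covered, UTX occupancy went from 53 to 4 members and lost H3K27ac islands from 0 to 2 (Ndufb5 and Ndufc1). With the replicate number as a block, 13 members fell (Ndufa5 added) and 4 rose, and no other call of a member changed. Same-numbered libraries did not deviate together (r = 0.047 for H3K27ac and -0.052 for H3K27me3). With 2 libraries per group this cannot settle whether the numbers pair them. For H3K27me3 no member passed under any alternative run. In simulated H3K27me3 counts 24% of 2-fold changes were recovered, which limits that mark.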

Other observations

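Glycolysis genes, read in the same fit as the respiratory chain, lay mostly above 0. Of 20 tested, 6 rose and 2 fell (median log2 fold change 0.23), against 10.8% and 16.9% of all genes. Eno2, an enolase, rose from 20.9 and 20.4 CPM in WT to 40.0 and 45.2 in KO (log2 fold change 1.04, SE 0.163, edgeR adjusted p = 0.00451), in a region shared with Atn1. Slc2a1, the glucose transporter GLUT1, rose from 25.5 and 22.8 to 45.0 and 48.5 CPM in a region of its own (0.95, SE 0.153, edgeR adjusted p = 0.00504). Slc16a3, Hk2, Pkm and Gapdh rose by 0.47, 0.44, 0.43 and 0.26. The lactate transporter gene Slc16a1 and the glucose transporter gene Slc2a3 fell with -0.95 and -0.795. Eno2, Slc2a1 and Slc16a1 passed without each library in turn. Leaving out WT replicate 1, WT replicate 2, KO replicate 1 or KO replicate 2 gave 3, 4, 3 and 4 rises and 1, 2, 2 and 2 falls. Scaling to total island reads gave 12 rises and 2 falls, and reads per covered length gave none of either, with Eno2 (-0.365) and Slc16a1 (0.18) on the other side of 0. The difference between the glycolysis and respiratory chain genes was not tested.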
